A study of Mus musculus with 2 samples.

Results

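The VEGF system is the signalling pathway that drives blood vessel growth, and its ligands, receptors and neuropilin co-receptors were described here in endothelial cells sorted from the embryonic mouse kidney. The 10 genes were taken by name and comprise the ligands Vegfa, Vegfb, Vegfc, Vegfd and Pgf, the receptors Kdr, Flt1 and Flt4, and the neuropilins Nrp1 and Nrp2. All probe sets that the platform annotation gives to exactly 1 of these genes were used, which gave 25 of the 34945 probe sets with 1 gene and 10 of 18193 genes. The array series has 1 group of 2 samples. Each sample was a pool of about 5 to 10 embryonic kidneys of Theiler stage 23, collected at E15.5 from the CD-1 strain, with the transgene Tg(TIE2GFP)287Sato, in which the promoter of the endothelial receptor gene Tek (Tie2) drives GFP. GFP-positive cells were sorted after trypsin dissociation, and their RNA was amplified in 2 rounds and hybridised to 1 array per pool. No adult or GFP-negative sample was analysed here, so there was no contrast between conditions and no p-value is given. The sample titles carry the name Flk1, an older name of Kdr, although the labelled reporter is Tie2, and the labelled source is the renal artery and vein endothelium although the protocol describes whole kidneys. The labels do not say whether the pools came from separate litters, so the spread between them may be partly technical.

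VEGF ligands are secreted dimers that bind receptor tyrosine kinases on endothelium. Vegfa acts through Kdr and Flt1, Vegfb and Pgf bind Flt1, and Vegfc and Vegfd bind Flt4. Kdr carries most of the growth signal, Flt1 binds Vegfa tightly but signals weakly and also exists as a soluble form, and Flt4 is known from lymphatic vessels and from sprouting embryonic blood vessels. Neuropilins have no kinase of their own and present VEGF and semaphorins to other receptors. In the kidney, podocytes and tubule epithelium are known sources of Vegfa, to which the ingrowing glomerular capillaries respond.

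Values are the deposited intensities, in arbitrary units, with replicate 1 always named first. The background limit was set per array at the 95th percentile over 83 probe sets of 75 sensory receptor genes (olfactory, vomeronasal and taste), which gave 202 in replicate 1 and 204 in replicate 2. Above background means over this limit in both pools. The intensity of a probe set depends on its sequence as well as on the transcript, so which probe sets pass a given intensity describes those probe sets and gives no order of transcript levels between genes. Depth has no counterpart on an array, and the number of arrays limits the precision.

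All 10 genes were above background on both arrays, against 61.0% of all genes. Of the 25 probe sets 24 (96.0%) were above background, against 55.0% of all probe sets with 1 gene. The exception was 1 of 2 probe sets of Vegfa, which passed the limit in replicate 2 only. Receptors and neuropilins passed with all of their probe sets, 7 of 7 and 8 of 8, and ligands with 9 of 10.

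**Figure D1:**
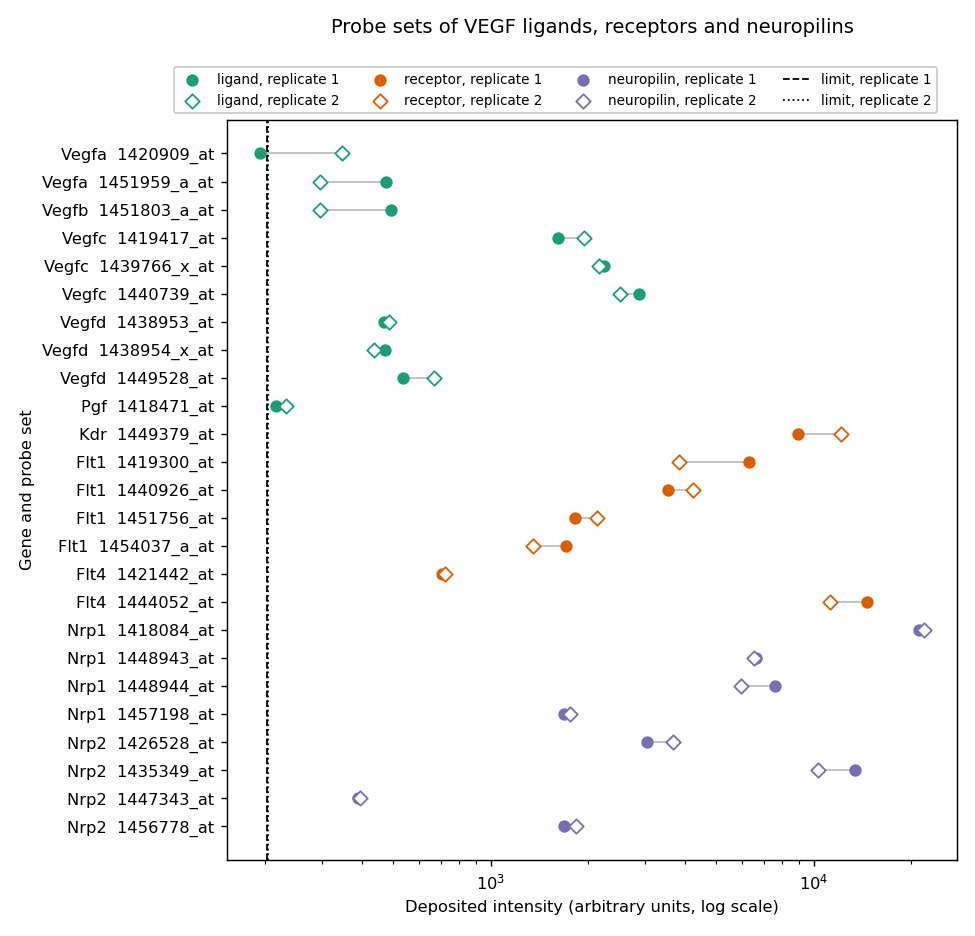
Deposited intensity (x axis, arbitrary units, log scale) of each of the 25 probe sets (y axis) in replicate 1 (filled circles) and replicate 2 (open diamonds), coloured by role, with the background limits as vertical lines. Probe set 1420909_at of Vegfa lies below the limit in replicate 1 (193), and Pgf lies just above it in both (216 and 233).

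Vegfa, the main ligand of Kdr, was close to the limit, and its probe sets pointed to different pools. Its probe set 1451959_a_at gave 473 and 296, whereas 1420909_at gave 193 and 346. The first was higher in replicate 1 by 1.61-fold and the second in replicate 2 by 1.78-fold, after centring the log2 differences on the median of all probe sets above background. The gene was called above background by the first probe set alone. In a pool of sorted cells fewer cells of a type and less RNA per cell cannot be told apart, here and in all values that follow. Vegfb, a ligand of Flt1, had 1 probe set, 1451803_a_at, which gave 491 and 296 and was higher in replicate 1 by 1.67-fold. Pgf, the placental growth factor and the other ligand of Flt1 alone, gave 216 and 233 with 1418471_at, its only probe set. That is 1.07 and 1.14 times the limit, and the pools differed by 1.07-fold.

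The ligands of Flt4 repeated more closely. Vegfc, a growth factor of lymphatic and embryonic vessels, gave 1622 and 1944 with 1419417_at, 2238 and 2165 with 1439766_x_at, and 2879 and 2518 with 1440739_at. All 3 probe sets were at least 8.01 times the limit on both arrays, and the largest difference between pools was 1.19-fold. Vegfd, its close relative, gave 534 and 667 with 1449528_at, 469 and 483 with 1438953_at, and 471 and 434 with 1438954_x_at. These were 2.13 to 3.27 times the limit, and the largest difference was 1.24-fold. Neither gene had probe sets that all pointed to the same pool. The suffix x marks probe sets that may bind other transcripts, and the suffix a those that match several transcripts of 1 gene.

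Kdr, the main signalling receptor, was measured by 1 probe set, 1449379_at, at 8939 and 12139. Replicate 2 was higher by 1.35-fold, or -0.43 as a centred log2 difference of replicate 1 minus replicate 2. Tek, the source of the reporter's promoter, had 15908 and 21499, a difference of -0.42, whereas 11 of the 14 endothelial markers counted here were higher in replicate 1. Flt1, the high-affinity receptor of Vegfa, Vegfb and Pgf, had 4 probe sets. They gave 6321 and 3821 with 1419300_at, 3535 and 4228 with 1440926_at, 1820 and 2142 with 1451756_at, and 1707 and 1356 with 1454037_a_at. The first and last were higher in replicate 1 and the others in replicate 2, with differences from -0.25 to 0.74. Flt4, the receptor of Vegfc and Vegfd, gave 706 and 724 with 1421442_at and 14611 and 11269 with 1444052_at. The first was 3.49 and 3.55 times the limit and differed by -0.02, and the second was 72.2 and 55.2 times the limit and differed by 0.39. The annotation lists no accession for 1444052_at.

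Nrp1, the neuropilin that binds Vegfa and is known from arterial endothelium, gave 21273 and 22005 with 1418084_at, 7576 and 5972 with 1448944_at, 6622 and 6517 with 1448943_at, and 1690 and 1760 with 1457198_at. Differences ran from -0.05 to 0.36, so the pools were within 1.28-fold on every probe set. Nrp2, known from veins and lymphatic vessels and as a partner of Flt4, gave 13387 and 10292 with 1435349_at, 3040 and 3660 with 1426528_at, 1687 and 1834 with 1456778_at, and 388 and 393 with 1447343_at. Its differences ran from -0.25 to 0.39. Of the 25 probe sets, 6 carried no accession in the annotation (8.05% of all probe sets with 1 gene carried none). They were 2 of Vegfc, 2 of Vegfd, 1 of Flt4 and 1 of Nrp2, and all 4 genes also passed with another probe set that had an accession.

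The share above background was followed as the limit was moved. At an intensity of 500 on both arrays 18 of 25 probe sets were above it (72.0%, against 40.9% of all probe sets with 1 gene), and these belonged to 7 genes. No probe set of Vegfa, Vegfb or Pgf, the ligands of Flt1, passed this intensity. At 1000 the count was 16 (64.0% against 31.2%), of which 3 were of the ligand Vegfc, 6 were of receptors and 7 were of neuropilins. At 10000 the count was 3, 1 probe set each of Flt4, Nrp1 and Nrp2 (12% against 5.31%). The 25 probe sets stand for 10 genes and are not independent, so these shares are descriptions.

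**Figure D2:**
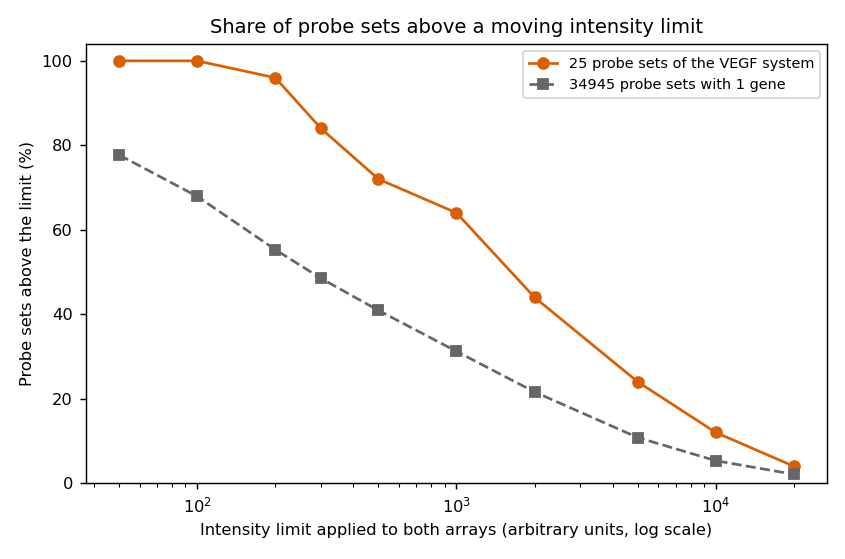
Percent of probe sets above an intensity limit on both arrays (y axis) as the limit is moved (x axis, arbitrary units, log scale), for the 25 probe sets of the VEGF system (circles) and for all 34945 probe sets with 1 gene (squares). The curves stand at 64.0% and 31.2% at an intensity of 1000 and at 4.0% and 2.09% at 20000.

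Differences between the pools were then set beside the spread of all probe sets. Of the 24 probe sets above background 0 differed by over 2-fold, against 4.96% of all probe sets with 1 gene above background. Their SD of the centred log2 difference was 0.33, against 0.51 over all probe sets with 1 gene above background. The median difference was -0.02, with 11 probe sets higher in replicate 1 and 13 in replicate 2. Beyond that SD of 0.51 lay 3 of the 24, 1451959_a_at of Vegfa (0.69), 1451803_a_at of Vegfb (0.74) and 1419300_at of Flt1 (0.74), all higher in replicate 1. The other 21 of 24 lay within it, as did 72.8% of all probe sets with 1 gene above background. Differences were wider among weak probe sets, with an SD of 0.55 below a mean intensity of 1000 and 0.47 above it. All 7 genes with several probe sets had some on each side of 0, and only Vegfb, Pgf and Kdr, with 1 probe set each, lay wholly on the side of 1 pool.

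**Figure D3:**
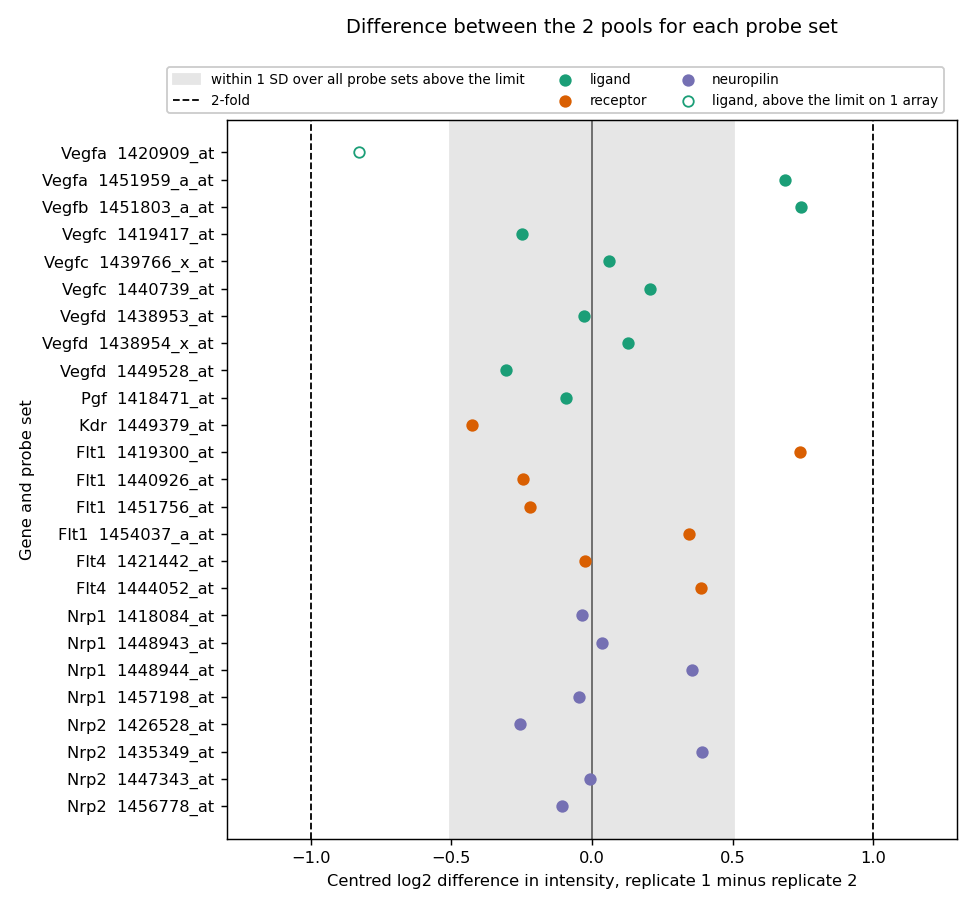
Centred log2 difference in intensity, replicate 1 minus replicate 2 (x axis), for each of the 25 probe sets (y axis), with the grey band at 1 SD (0.51) over all probe sets with 1 gene above background and dashed lines at 2-fold. The 24 filled points lie between -0.43 and 0.74, and the open point is the Vegfa probe set that passed the limit in replicate 2 only (-0.83).

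Promoter sequence was read for the same genes because sites in the promoters of endothelial genes, those of ETS factors among them, were a question of the study. ETS factors are transcription factors of vessel formation. The RefSeq table (GRCm38.p6) held 12 start sites for the 10 genes. The 250 bases before each were searched on both strands for TTCCTG, which is 1 form of ETS site, and other forms were not searched. They were also searched for GGGCGG, the GC box bound by Sp1, and for ACGTG, the core of hypoxia response elements. GC boxes were present in 10 of 12 windows (83.3%), against 32.7% of 32851 windows of all genes. TTCCTG was present in 2 of 12 (16.7% against 25.7%), those of Vegfa and Nrp2, and ACGTG in 1 of 12 (8.33% against 16.6%), at the second start of Vegfa. That start lies inside the gene, downstream of the first. Its window holds coding sequence of Vegfa, so this match is not upstream of the gene. The same holds for the 1 GC box in that window, which is among the 10 windows counted. The paper lists Flt1 among genes with a conserved RYTTCCTG site upstream. Its search for conserved sites is not comparable with the 250 bases searched here, where the Flt1 window had no TTCCTG. The receptor windows of Kdr, Flt1 and Flt4 had 2, 3 and 3 GC boxes, and their GC content was 61.6%, 70.4% and 68.4%, against a median of 52.4% over all windows. GC content over the 12 windows ran from 42.4% for Vegfd, which had no GC box, to 76.4% for Vegfb. The windows of the receptors Kdr and Flt1, and of Vegfa and Nrp2, the 2 genes with TTCCTG, are printed from 5′ to 3′ on the strand of the gene, with matches to TTCCTG and GGGCGG in capitals, read on either strand (so CAGGAA and CCGCCC as well, overlapping matches included). A match is a description of the letters, and the arrays did not measure the binding of any factor.
Kdr, chr5:75978456-75978705, minus strand: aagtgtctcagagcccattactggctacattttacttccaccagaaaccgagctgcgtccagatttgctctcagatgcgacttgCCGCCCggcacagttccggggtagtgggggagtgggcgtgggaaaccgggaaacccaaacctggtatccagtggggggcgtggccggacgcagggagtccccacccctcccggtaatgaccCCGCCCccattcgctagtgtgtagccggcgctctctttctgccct
Flt1, chr5:147726012-147726261, minus strand: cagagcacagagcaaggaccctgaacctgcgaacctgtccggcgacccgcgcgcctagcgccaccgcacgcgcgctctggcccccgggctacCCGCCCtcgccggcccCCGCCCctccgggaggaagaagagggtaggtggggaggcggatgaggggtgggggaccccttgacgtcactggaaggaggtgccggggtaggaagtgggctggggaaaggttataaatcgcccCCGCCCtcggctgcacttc
Vegfa, chr17:46032378-46032627, minus strand: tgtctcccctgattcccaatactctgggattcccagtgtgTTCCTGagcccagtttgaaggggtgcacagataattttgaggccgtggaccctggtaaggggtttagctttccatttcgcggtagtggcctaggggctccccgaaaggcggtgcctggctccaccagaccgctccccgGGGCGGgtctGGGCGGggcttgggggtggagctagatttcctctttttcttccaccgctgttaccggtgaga
Nrp2, chr1:62703067-62703316, plus strand: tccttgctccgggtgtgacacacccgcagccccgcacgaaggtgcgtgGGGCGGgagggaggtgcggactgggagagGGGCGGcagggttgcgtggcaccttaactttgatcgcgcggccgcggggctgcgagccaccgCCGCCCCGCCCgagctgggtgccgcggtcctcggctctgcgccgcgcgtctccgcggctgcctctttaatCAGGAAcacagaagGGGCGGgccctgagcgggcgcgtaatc

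Other genes of the pathway were counted in 6 lists of 85 genes, of which 79 had a probe set of their own and 6 were not measured. For a gene with several probe sets, the brightest one by mean log2 intensity stood for the gene. Of the 79 genes 74 (93.7%) were above background, against 61.0% of all genes. Between the pools, 4 of the 74 differed by over 2-fold (5.41%, against 4.8% of all genes above background), 1 higher in replicate 1 and 3 in replicate 2.

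Genes that process the ligands or hold the pathway back were all above background, 10 of 10, against 61.0% of all genes. Ccbe1 and Adamts3, which together release active Vegfc, gave 244 and 427, and 241 and 434, both close to the limit in replicate 1. Adamts1 and Thbs1, secreted proteins that bind VEGF, gave 5380 and 7779, and 243 and 494. Dcn, decorin, a matrix proteoglycan that is also a stromal marker, gave 993 and 3690 and was higher in replicate 2 by 3.68-fold, the largest difference of the list. Thbs1 was also higher in replicate 2 but only just past 2-fold (2.02-fold). By the brightest probe set of each gene, 5 of the 10 were higher in replicate 1 and 5 in replicate 2. Those higher in replicate 1, by 1.06-fold to 1.74-fold, were the intracellular inhibitors Spry1, Spry2, Spry4, Spred1 and Spred2. The direction in their other probe sets was not examined.

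Of the neuropilin partners 9 of 10 were above background, against 61.0% of all genes. Plxnd1, the semaphorin receptor of endothelium, gave 15642 and 9962. Plxna1 gave 1660 and 867, Plxna2 gave 1168 and 1168 and Plxna4 gave 204 and 249, the last barely over the limit in replicate 1. The semaphorin Sema3c, a ligand of both neuropilins, gave 473 and 1126 and was higher in replicate 2 by 2.36-fold. Sema3e, which acts on Plxnd1 without a neuropilin, was below the limit on both arrays (56.5 and 188).

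Of the proteins that bind or act on the receptors, 16 of 19 were above background (84.2%, against 61.0% of all genes). Plcg1, the phospholipase that Kdr activates, gave 16313 and 17410. The adaptors Shb and Nck1 gave 1123 and 859, and 3355 and 4514. Among the kinases, Src differed most, with 547 and 1050, or 1.90-fold higher in replicate 2. The phosphatase Ptprb (VE-PTP), which restrains Kdr, gave 11191 and 9661. Not above background were the adaptor Sh2d2a (34.6 and 33.3), the phosphatase Ptprj (177 and 183) and the integrin Itgb3, which passed in replicate 2 only (164 and 642).

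Downstream kinases and effectors reached 18 of 19 (94.7%, against 61.0% of all genes). Akt1, a survival kinase, gave 4813 and 4167, the MAP kinase kinases Map2k1 and Map2k2 gave 8506 and 11211, and 2941 and 1558, and Mapk14 (p38) gave 21771 and 17966. Nos3, which makes nitric oxide in endothelium, gave 4952 and 2456 and was higher in replicate 1 by 2.03-fold. The sphingosine kinase Sphk1 was below the limit on both arrays (107 and 118).

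All 13 genes known to respond to VEGF were above background, against 61.0% of all genes. Of these 0 of 13 differed by over 2-fold, near the 4.8% of all genes above background. Rcan1, a calcineurin inhibitor, gave 7821 and 8773. The early response factors Egr3, Nr4a1 and Nr4a2 gave 938 and 1186, 9779 and 7086, and 791 and 1289, the last being the widest difference of the list (1.61-fold). Of genes known from sprouting vessels, Dll4 gave 1264 and 1090, Esm1 gave 3454 and 2671, Angpt2 gave 1111 and 1383 and Apln gave 1611 and 1662.

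Oxygen sensing, which controls Vegfa in many tissues, was represented in full, 8 of 8, against 61.0% of all genes. Hif1a gave 5427 and 7216, Epas1, the hypoxia factor of endothelium, gave 45280 and 46836, their partner Arnt gave 3328 and 4147, and Vhl, which targets both for degradation, gave 3039 and 3826. The prolyl hydroxylase Egln3 gave 18176 and 13645, the widest difference of this list (1.34-fold). Every gene of this list was at least 2875 on both arrays.

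**Figure D4:**
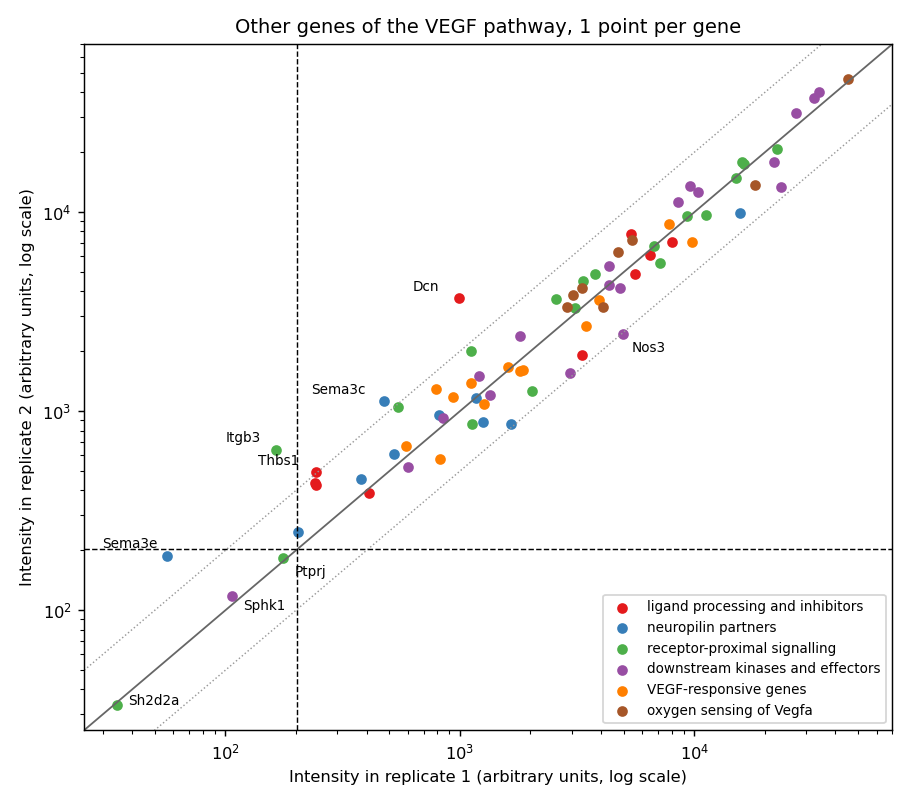
Intensity of each other gene of the VEGF pathway (arbitrary units, log scales), with replicate 1 on the x axis and replicate 2 on the y axis, coloured by list, with the limits dashed, the line of equal intensity solid and 2-fold dotted. The 5 genes below a limit are labelled, as are Dcn, Thbs1 and Sema3c above the upper 2-fold line and Nos3 near the lower one.

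Several of the 10 genes are also made by cells other than endothelium, so marker genes of the cells a kidney could contribute were counted in the same samples. All 14 endothelial markers were above background, against 61.0% of all genes, with Tek and Cdh5 (22435 and 20733) among them. Of the 14 markers 0 differed by over 2-fold, near the 4.8% of all genes above background. Their median log2 difference was 0.19 and their summed intensity was 202171 and 181518. The 10 VEGF genes, each by its brightest probe set, had a median of 0.30 and summed to 69124 and 63534. That median depends on the choice of probe set, since over all 24 probe sets above background it was -0.02, with 13 of 24 higher in replicate 2.

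Markers of known Vegfa sources were mixed. Of the podocyte markers 4 of 6 (66.7%) were above background, against 61.0% of all genes. Synpo (1012 and 2346), Plce1 (312 and 1095) and Ptpro (1089 and 1903) passed on both arrays. Nphs1, nephrin of the slit diaphragm, did not reach the limit in either pool (89.1 and 100), and Wt1 did so in replicate 2 only (144 and 347). Podxl, which endothelium makes too, gave 29868 and 30060, and the whole podocyte list summed to 32514 and 35849. Of nephron epithelium markers 3 of 8 (37.5%) were above background, Cdh6 (480 and 812), Cdh1 (262 and 379) and Jag1 (4577 and 5937). Lhx1 (108 and 13.6) and Pax8 (112 and 151) were among those that were not. The list summed to 6094 and 7833, and most of both sums came from Jag1. The podocyte markers above background had a median difference of -0.996 and those of nephron epithelium -0.52, toward replicate 2, while the Vegfa probe set above background was higher in replicate 1 (0.69) and the other higher in replicate 2 (-0.83). Nephron progenitor markers reached 4 of 8, with Six2 at 269 and 230 and Cited1 below the limit (11.7 and 13.6), and ureteric bud markers 3 of 8, with Ret above it in replicate 1 only (203 and 163) and Wnt11 at 374 and 564. Their sums were 2228 and 3005, and 2182 and 2433. The part of these cells in the Vegfa signal was not tested.

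Lymphatic markers bear on Flt4, Vegfc and Nrp2. Of 7 measured, 6 were above background (85.7%, against 61.0% of all genes), Flt4 itself being 1 of them. Prox1, the factor that defines lymphatic identity, passed in replicate 2 only (93.0 and 548), and Lyve1, which macrophages also make, gave 5782 and 16595, or 2.84-fold higher in replicate 2. Foxc2 (2138 and 1784), Itga9 (5275 and 3900) and Flt4 were higher in replicate 1. Of the 6 above background 3 were higher in each pool, with a median difference of -0.12, and the list summed to 35191 and 44818. The probe sets of Flt4 differed by 1.02-fold and 1.31-fold, and the widest difference of Nrp2 was 1.31-fold. The part of lymphatic cells in these values was not tested.

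Renal stroma markers differed between the pools. Of 12 stromal markers 11 were above background (91.7%, against 61.0% of all genes), and all 11 were higher in replicate 2. Of these 11, 9 differed by over 2-fold, against 4.8% of all genes above background. The median log2 difference of the 11 was -1.88. Foxd1, known from the cortical stroma, gave 775 and 1775, and Pdgfra gave 720 and 4811. Their summed intensity was 27993 and 92293. Among the probe sets of the VEGF genes above background 0 of 24 differed by over 2-fold, against 4.96% of all probe sets with 1 gene above background. With 24 probe sets a count of 0 is near that share. Dcn, Sema3c and Thbs1 of the pathway lists were over 2-fold higher in replicate 2. The part of stroma in those values was not tested. Mural markers reached 7 of 10 (70.0%, against 61.0% of all genes), with a median of -0.51, Pdgfrb at 2246 and 4253, Rgs5 at 1212 and 1838 and sums of 17594 and 21183. Des was below the limit in both pools (77.5 and 106). Tagln (98.8 and 334) and Myh11 (32.4 and 278) passed in replicate 2 only, so that median leaves out their differences.

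Blood cell markers were counted in the same way, with 61.0% of all genes above background. Of 12 macrophage markers 11 (91.7%) were above it, with Csf1r at 34030 and 36806 and Adgre1 at 4305 and 7632, Itgam being the exception (131 and 94.4). The macrophage sum was 96948 and 113505, with a median difference of -0.12. Tie2 is also known from some macrophages, and so are Flt1, Nrp1 and Nrp2, and their part in these intensities was not tested. Erythroid markers reached 5 of 8 (62.5%), close to the share of all genes, with sums of 58274 and 50875. Hbb-y gave 55397 and 48789, most of both sums, Hbb-bh1 gave 1127 and 467, and Klf1 was below the limit (132 and 174). The probe sets of Hbb-y and Hbb-bh1 carry the suffix x, so they may bind other transcripts. Platelet markers reached 4 of 7 (57.1%), also close to that share, with Pf4 at 13136 and 13626, Itga2b at 653 and 813, Gp9 below the limit (19.6 and 86.8) and sums of 14898 and 16370.

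**Figure D5:**
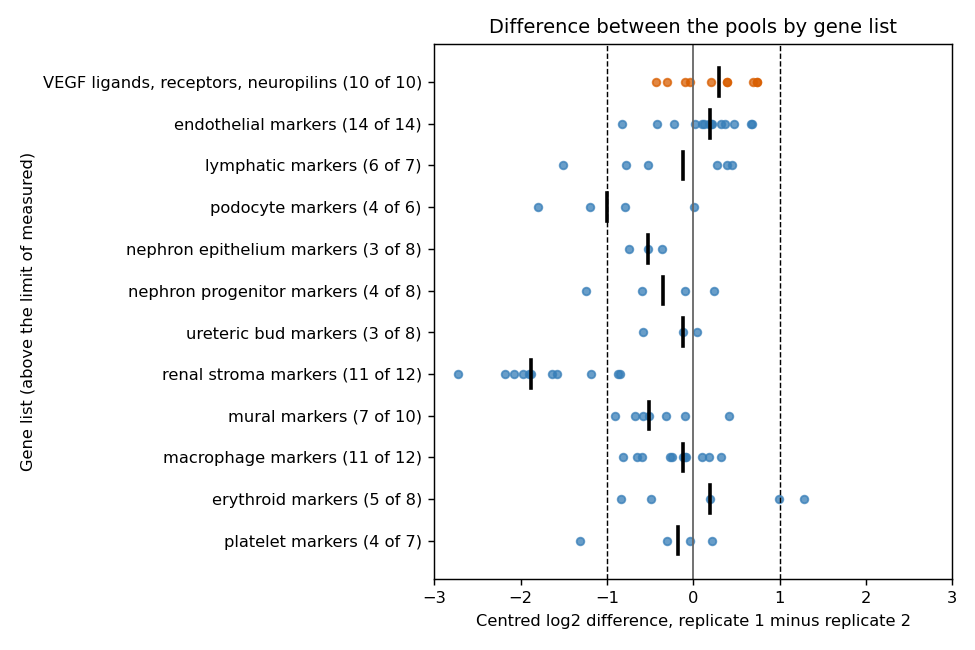
Centred log2 difference, replicate 1 minus replicate 2 (x axis), of each gene above background (dots) in the VEGF genes and the 11 marker lists (y axis, with the number above background of those measured), with medians as black bars and dashed lines at 2-fold. The VEGF median, by the brightest probe set of each gene, stands at 0.30 (-0.02 over all 24 probe sets above background), the endothelial median at 0.19 and the renal stroma median at -1.88.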

How the data were processed

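The authors deposited 1 intensity value per probe set on a linear scale for each of 2 Affymetrix 3′ expression arrays. The submitters' processing notes name GCOS with no version, and a genome build and detection calls are not given in the sources used here. The mean without the lowest and highest 2% of values was 1500.01 on both arrays, so they had been scaled to a shared mean, and median intensities were 233 and 247. The study's own methods are for a different array type with single-round amplification, and were not taken over.

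Of 45101 probe sets, 34945 had 1 gene in the platform annotation, 932 several and 9160 none, and 64 were controls. All 25 member probe sets matched a current mouse gene table with 0 changed symbols. Log2 differences, replicate 1 minus replicate 2, were centred on their median over probe sets above background on both arrays, which removed an offset of -0.01. Centring was tested on simulated data. With 1 group no test was made, and the sole spread available is that between the 2 pools.

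The members, gene lists and tests were chosen with earlier results of these data known. Named genes are all members, and of each pathway list the first 4 measured, those not above background and the widest difference. Tek is named, and of each marker list the first 2 and defining genes below the limit. Spry1, Spry2, Spry4, Spred1, Spred2, Ptprb, Dll4, Esm1, Angpt2, Apln, Podxl, Synpo, Plce1, Ptpro, Cdh6, Cdh1, Jag1, Foxc2, Itga9, Tagln and Myh11 fall outside this rule and were chosen after their values were seen. Alternatives changed the limit, the probe set per gene and the normalization. Python 3.11.15, pandas 2.3.3, numpy 2.4.6 and statsmodels 0.14.6 were used.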

Additional observations from a re-analysis of the deposited data

How the results depend on the processing

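Each of 37 recalculations of the counts and of the median difference stayed within 1.5 times the count, or within 1 SD of the value, reported above. These allowances are wide. The SD is that of single probe sets (0.51), which a median could hardly exceed, and 7 in place of 10 member genes falls within the allowance for counts. The values themselves are therefore given. Member probe sets above background numbered 20 of 25 at 2 times the limit, 23 with the 99th percentile of the sensory receptors and 25 with the 90th percentile or a flat limit of 100, against 44.1%, 49.6%, 57.7% and 67.9% of all probe sets with 1 gene. Pgf was not above the 99th percentile limit, and at 2 times the limit Vegfa, Vegfb and Pgf were not, which left 7 of 10 genes. On either array alone all 10 genes passed. Without suffixed probe sets 8 of the 9 genes still measured passed, Vegfa not among them and Vegfb not measured. Pathway genes above background ranged from 67 to 77 of 79 measured, and 75 were measured without suffixed probe sets. Leaving out the centring, quantile normalization, loess or adding 16 before log2 moved the 25 member differences by at most 0.083, and the sign changed for 3 that were near 0, 1 each of Flt4, Vegfd and Nrp2. The median difference ran from -0.04 to 0.04, and 0 probe sets differed by over 2-fold under any of them. Using only probe sets with an accession, a choice made after seeing the data, gave 18 of 19 above background. Leaving out an array gives no difference between the pools, so none is listed.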
